A study of Drosophila melanogaster with 36 samples.

Results

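The maltases and amylases are the starch and sugar digesting enzymes of the fly gut, and 10 of their genes were followed here: Mal-A1, Mal-A2, Mal-A3, Mal-A4, Mal-A6, Mal-A7 and Mal-A8, the amylase genes Amy-p and Amy-d, and the amylase-related gene Amyrel. They were taken by symbol from the 17582 genes in the count files, and all 10 were found. Whole wild-type (WT) Drosophila melanogaster of both sexes were the source of total RNA, from which the 3' ends of transcripts were sequenced. Exposed flies had inhaled CMIT/MIT, a mixture of the isothiazolinone biocides chloromethylisothiazolinone and methylisothiazolinone, as an aerosol of 330 mg/m3 during 1 hour, and control flies had inhaled filtered air. Exposed females, air females, exposed males and air males were each sampled on days 1, 2 and 7, which gave 12 groups of 3 libraries. Neither the age of the flies nor the start of the day count is labelled, and nothing shows that replicates are separate cultures, so p-values measure only the spread between these samples. Whole flies were sampled, so fewer gut cells and less RNA per gut cell cannot be told apart.

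Dietary starch is cut inside its chains by amylase, which leaves maltose and short glucose chains. Maltases, which are alpha-glucosidases carried largely on the surface of midgut cells, then release glucose from these ends. In flies the transcripts of both enzyme families are known to respond to the sugar content of the diet and to the Activin-like signal Dawdle and the sugar sensor Mondo. Amy-p and Amy-d are the proximal and distal copies of an inverted duplication, and Amyrel is a more distant relative of both.

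In the dm6 (BDGP6) assembly all 10 genes lie on chromosome arm 2R and are protein coding. Mal-A1 (FBgn0002570) spans 2R 8449664 to 8451904 on the minus strand, Mal-A2 (FBgn0002569) 8453627 to 8455782 on the plus strand and Mal-A3 (FBgn0002571) 8455909 to 8457892 on the minus strand. Mal-A4 (FBgn0033294) follows at 8458815 to 8460884 on the plus strand. Mal-A6 (FBgn0050360) lies at 8465158 to 8467595 on the plus strand, Mal-A7 (FBgn0033296) at 8468646 to 8471663 on the minus strand and Mal-A8 (FBgn0033297) at 8471954 to 8473961 on the plus strand. Mal-A5, which is not among the 10, sits between Mal-A4 and Mal-A6, so that 8 Mal-A genes fill 24298 bp. Amyrel (FBgn0020506) lies far along the arm at 16651095 to 16652699 on the minus strand. Amy-p (FBgn0000079) spans 17118636 to 17120303 on the minus strand and Amy-d (FBgn0000078) 17124764 to 17126369 on the plus strand, 4460 bp apart. The split of reads between Amy-p and Amy-d is uncertain, since near-identical copies can share reads. Mal-A1, Mal-A8 and Amyrel overlap genes on the other strand (Cyp4e1, mtt and gprs), and the strand setting used in counting is not given in the sources used here.

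Libraries held 4681333 to 17182966 counts, which puts the floor of 3 counts between 0.175 and 0.641 CPM (counts scaled to a common library size). Counting error alone is covered by floors and intervals, because PCR copies are not independent molecules. The library labelled day 2 exposed males replicate 3 and the library labelled day 2 exposed females replicate 1 carried markers of both sexes, with 209.8 and 254 CPM of the male RNA roX1 and 6700 and 6206 CPM of the yolk protein gene Yp1. They are called mixed libraries, and the main day 2 comparisons are given with and without them. Levels are given as CPM after TMM scaling of the 36 libraries together. Apart from Amyrel, every gene had at least 21 counts in every library. In females 9 of the 10 passed the filter on low counts (Amyrel did not), and in males 10 did.

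In females on day 1, every exposed library lay below every air library for all 9 genes that passed the filter. The 7 maltases had log2 fold changes between -3.01 and -1.80, and the amylases had smaller ones, -1.18 for Amy-d and -0.99 for Amy-p. The median over the 9 was -2.36, against -0.005 over all 9893 genes tested. None of the 9 passed an adjusted p of 0.05 in edgeR's quasi-likelihood test, which called 0.263% of genes. The unadjusted p was below 0.05 for 7 of the 9, the maltases, and for 12.7% of all genes. Among all genes tested, 9.24% had exposed libraries entirely below air libraries.

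Mal-A1, the most abundant maltase, had 70.6, 52.1 and 25.2 CPM in day 1 exposed females, against 174, 275 and 237 CPM in day 1 air females. The highest exposed library was thus under the lowest air library, and edgeR gave a log2 fold change of -2.20 with an SE of 0.69 (adjusted p = 0.179). Mal-A7 showed the largest fold change of the family. Its libraries held 29.0, 7.53 and 6.14 CPM in exposed females, against 85.8, 146 and 114.8 CPM in air females (log2 fold change -3.01, SE 0.88, adjusted p = 0.151). For Mal-A4 the values were 14.0, 16.96 and 2.96 CPM in exposed females, against 53.8, 107 and 66.8 CPM in air females (log2 fold change -2.73, SE 0.75, adjusted p = 0.135). The third exposed library was the lowest of its group for Mal-A1, Mal-A4 and Mal-A7.

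Mal-A6 was even among exposed females, at 15.6, 12.7 and 14.6 CPM, against 45.3, 111 and 74.1 CPM in air females (log2 fold change -2.40, SE 0.71, adjusted p = 0.157). Mal-A8 had 12.9, 5.56 and 1.59 CPM in exposed females, against 22.2, 54.1 and 31.7 CPM in air females (log2 fold change -2.41, SE 0.74, adjusted p = 0.170). These 2 genes flank Mal-A7 in the cluster. Mal-A3 had 6.99, 6.92 and 3.26 CPM in exposed females, against 20.8, 38.4 and 30.2 CPM in air females (log2 fold change -2.36, SE 0.65, adjusted p = 0.133). Mal-A2, the least abundant maltase, had 5.77, 6.51 and 1.89 CPM in exposed females, against 13.4, 18.8 and 17.8 CPM in air females (log2 fold change -1.80, SE 0.69, adjusted p = 0.265). None of these pairs of groups overlapped.

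**Figure D1:**
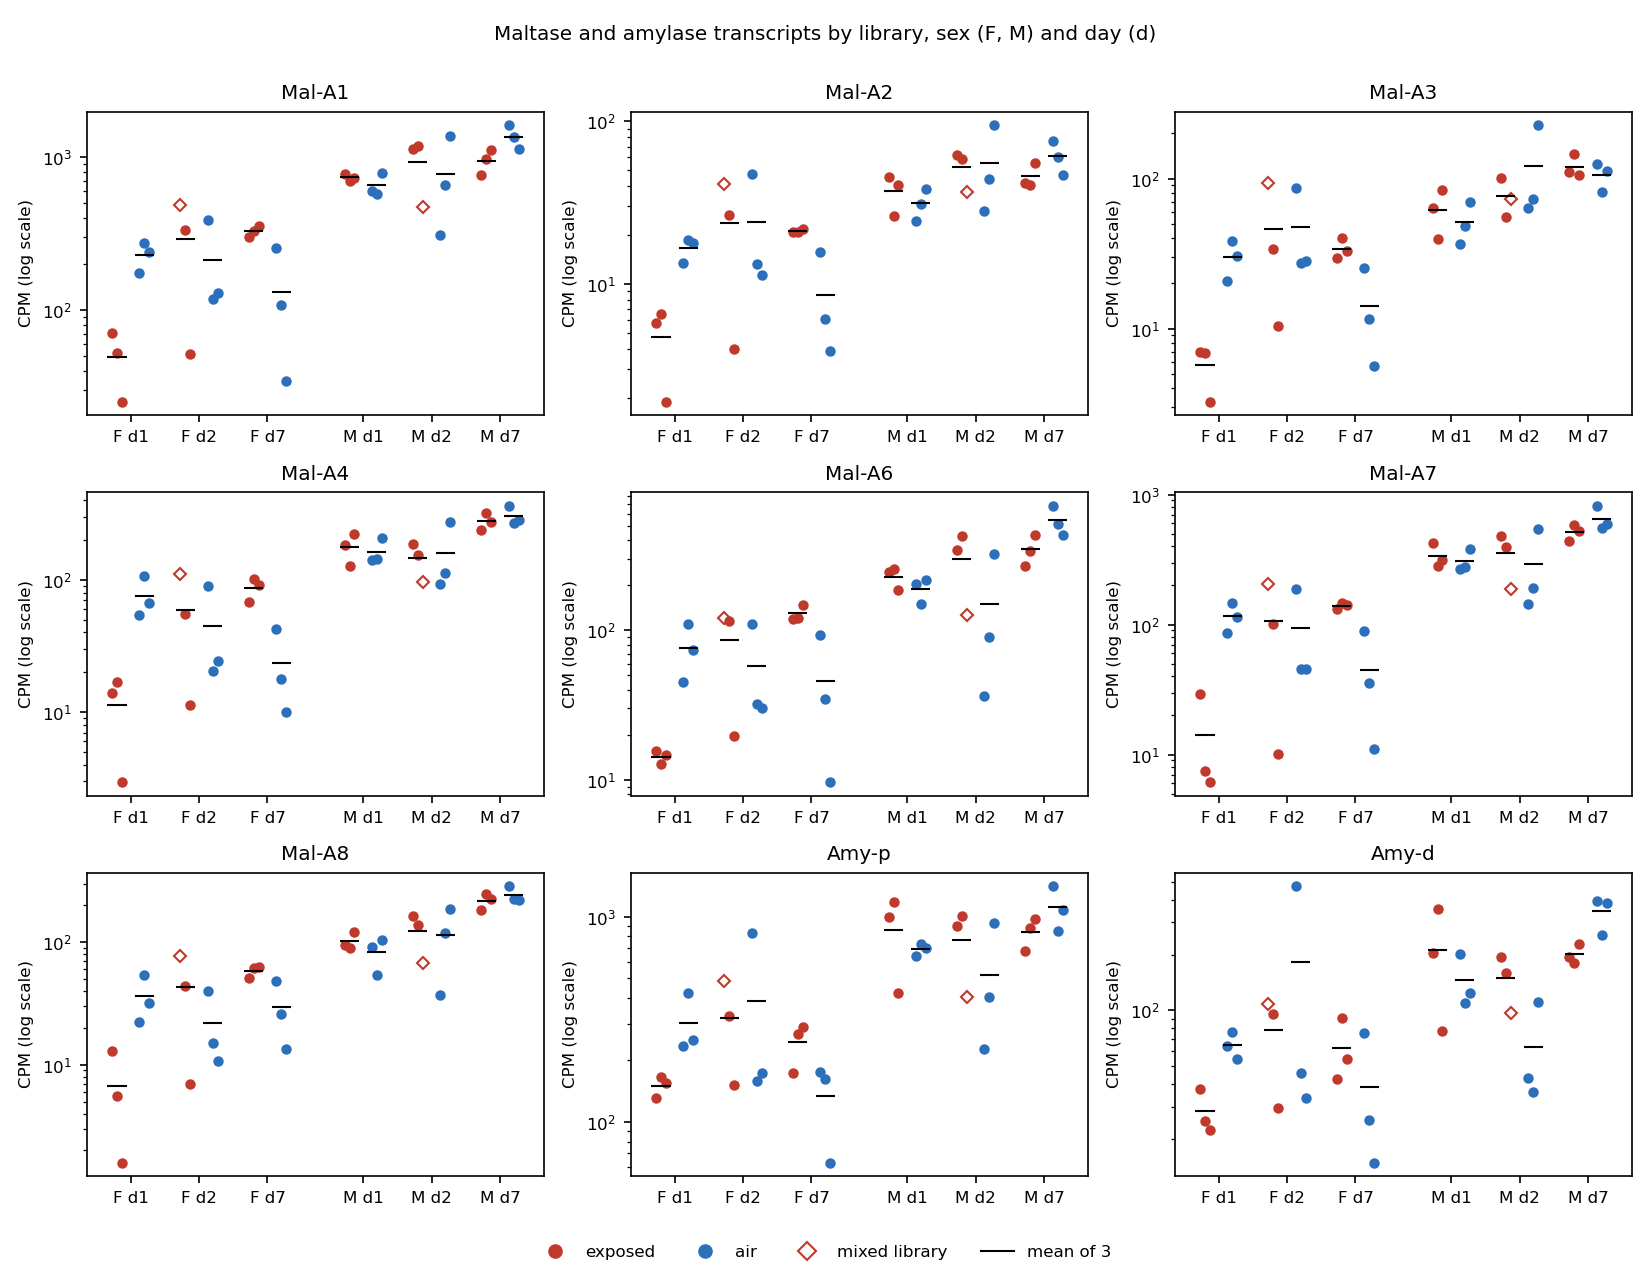
Level of each gene in each library (CPM, log scale) by sex and day, with exposed libraries in red left of air libraries in blue, mixed libraries as open diamonds and a bar at the mean of 3. In females on day 1 all exposed points lie below all air points in the 9 panels, and on day 7 those of the 7 maltases lie above.

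The count of members called on day 1 moved with the tool, the filter, the libraries fitted and the threshold. With the 6 libraries of day 1 females alone, edgeR called 8 of 9 lower (all but Mal-A2), where 2% of genes were called. DESeq2 called Mal-A3, Mal-A4 and Mal-A7, with 2.76% of genes called, and edgeR without the filter called those 3 and Mal-A6, with 0.766% of genes called. With the size factors of DESeq2 edgeR called none, with 0.232% of genes called. By the looser threshold that the series itself names (over 1.5-fold, unadjusted p below 0.05), the 7 maltases were lower, against 6.11% of all genes.

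The amylases, which open the starch chains, had the smaller differences. Amy-p had 131, 164 and 154 CPM in day 1 exposed females, against 233, 423 and 249.9 CPM in day 1 air females (log2 fold change -0.99, SE 0.55, adjusted p = 0.492). Amy-d had 37.5, 25.2 and 22.4 CPM in exposed females, against 64.3, 75.8 and 54.5 CPM in air females (log2 fold change -1.18, SE 0.78, adjusted p = 0.597). Groups did not overlap for either gene.

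On day 2 the female groups overlapped for every member and showed no common direction. Mal-A1 had 486, 333 and 51.4 CPM in exposed females, against 387, 118 and 129 CPM in air females. The first exposed value is the mixed library, the third lies within the range of day 1 exposed females, and the first air library stands above the other two. Log2 fold changes ran from -1.36 for Amy-d to 0.83 for Mal-A8 with a median of 0.03, and without the mixed library 7 of 9 were negative with a median of -0.62. No member was called by edgeR (0.455% of genes called) or by DESeq2 (1.25% of genes). None had an unadjusted p below 0.05 (9.52% of genes did). Exposed and air libraries overlapped for all 9, while 6.05% of genes were higher and 4.89% lower without overlap. They still did for all 9 without the mixed library, when 8.02% of genes were higher and 17% lower without overlap. Amy-d had 109, 95.7 and 29.4 CPM in exposed females, against 472, 45.5 and 33.4 CPM in air females. Its log2 fold change of -1.36 (SE 0.78, adjusted p = 0.629) was 0.95 without the first air library and -1.55 without the mixed library. Mal-A7 had 206, 102 and 10.02 CPM in exposed females, against 189, 45.6 and 45.6 CPM in air females (log2 fold change 0.03, SE 0.81). The remaining log2 fold changes were 0.33 for Mal-A1, 0.25 for Mal-A4 and 0.47 for Mal-A6, and -0.14 for Mal-A2, -0.21 for Mal-A3 and -0.39 for Amy-p.

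On day 7 exposed females lay above air females, the opposite of the order on day 1. All 9 genes had positive log2 fold changes, from 0.74 for Amy-d to 1.92 for Mal-A4, with a median of 1.35 against -0.005 over all genes. For the 7 maltases every exposed library lay above every air library, which held in that direction for 7.22% of genes tested. None of the 9 was called by edgeR (adjusted p = 0.9999 for each, with 0.0101% of genes called) or by DESeq2 (0.101% of genes). The unadjusted p was below 0.05 for 2, Mal-A4 and Mal-A6 (3.28% of genes). By the 1.5-fold threshold those 2 were higher, against 2.19% of genes.

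Mal-A1 had 302, 329.5 and 354 CPM in day 7 exposed females, against 252, 108 and 34.1 CPM in day 7 air females (log2 fold change 1.36, SE 0.67). The exposed libraries lay close together and the air libraries spread over a wide range. Mal-A4 had 68.0, 101 and 91.9 CPM in exposed females, against 42.8, 17.9 and 10.01 CPM in air females (log2 fold change 1.92, SE 0.73). Mal-A6 had 119.6, 121.7 and 148 CPM in exposed females, against 93.8, 34.8 and 9.64 CPM in air females (log2 fold change 1.54, SE 0.68). Mal-A7 had 132, 146 and 142 CPM in exposed females, against 88.5, 35.4 and 11.02 CPM in air females (log2 fold change 1.68, SE 0.83). The third air library was the lowest of its group for each of these 4 maltases, and without it the log2 fold change of Mal-A1 was 0.91 and that of Mal-A7 1.22.

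Among the less abundant maltases, Mal-A2 had 20.8, 21.0 and 21.8 CPM in day 7 exposed females, against 15.7, 6.14 and 3.86 CPM in air females. Mal-A3 had 29.5, 40.0 and 32.7 CPM in exposed females, against 25.4, 11.6 and 5.60 CPM in air females. Mal-A8 had 51.0, 60.9 and 62.8 CPM in exposed females, against 48.6, 25.9 and 13.5 CPM in air females. The gap between the lowest exposed and the highest air library was narrow for Mal-A3 and Mal-A8. Both amylases overlapped on day 7. Amy-p had 173, 267 and 289.8 CPM in exposed females, against 174, 161 and 63.2 CPM in air females (log2 fold change 0.91, SE 0.55), and Amy-d had 42.4, 90.3 and 54.7 CPM in exposed females, against 75.1, 25.3 and 14.9 CPM in air females (log2 fold change 0.74, SE 0.78).

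**Figure D2:**
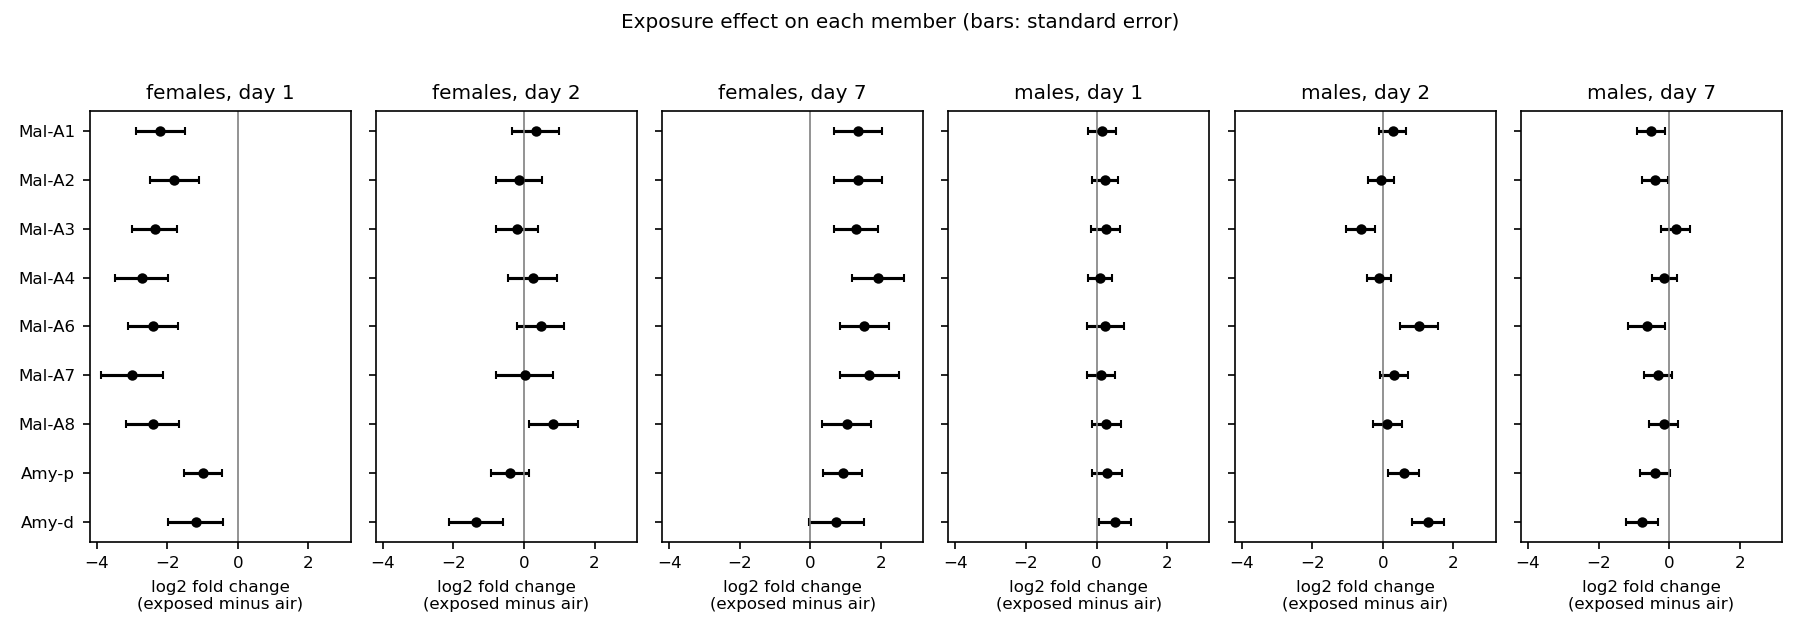
Log2 fold change of exposed minus air libraries for each gene, with its standard error, in females (left) and males (right) on days 1, 2 and 7. Values in females run from -3.01 on day 1 to 1.92 on day 7, and those in males stay between -0.77 and 1.27.

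The difference among the 3 daily effects in females was tested directly. No member passed (edgeR adjusted p between 0.112 for Mal-A4 and 0.612 for Amy-d, with 0.445% of genes called), while 7 of 9, the maltases, had an unadjusted p below 0.05, as did 10.7% of genes. DESeq2 called Mal-A3 and Mal-A4, with 2.48% of genes called, and edgeR without the filter called 6 maltases, with 1.04% of genes called. Leaving out the first air library of day 2, in which the 10 genes summed to 2252 CPM against 476 and 484 CPM in its replicates, edgeR called Mal-A3, Mal-A4 and Mal-A6, with 1.47% of genes called. Leaving out the third exposed library of day 2, it called Mal-A4, with 0.661% of genes called. Among exposed females, every day 7 library lay above every day 1 library for 9 of 9 genes (18.7% of genes tested), and among air females every day 7 library lay below every day 1 library for 2 of 9 (7.85% of genes tested).

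In males no member was called for exposure on any day. On day 1 all 9 genes other than Amyrel had positive log2 fold changes, of 0.10 for Mal-A4 to 0.52 for Amy-d, and groups overlapped for each, while 6.70% of genes were higher and 6.49% lower without overlap. Mal-A1 had 775, 701 and 725 CPM in day 1 exposed males, against 597, 576 and 784 CPM in day 1 air males (log2 fold change 0.16, SE 0.39, adjusted p = 0.9997). Amy-p had 995, 1172 and 426 CPM in exposed males, against 639, 735 and 703 CPM in air males (log2 fold change 0.30, SE 0.43). The third exposed library was the lowest of all for Amy-p and for Amy-d, which had 205, 354 and 76.8 CPM in exposed males, against 203, 110.2 and 123 CPM in air males. The remaining log2 fold changes were 0.12 for Mal-A7, 0.24 for Mal-A2, 0.25 for Mal-A6, 0.26 for Mal-A3 and 0.28 for Mal-A8. No member had an unadjusted p below 0.05 (3.17% of genes did) or was called by edgeR or DESeq2, and neither tool called any gene (0% of 12871).

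On day 2, Mal-A1 had 1133, 1181 and 472 CPM in exposed males, against 308, 656 and 1367 CPM in air males, and the groups overlapped. The lowest exposed value is the mixed library. Amy-d had 194, 159 and 96.6 CPM in exposed males, against 42.7, 36.03 and 111 CPM in air males (log2 fold change 1.27, SE 0.46, adjusted p = 0.128). Without the mixed library the log2 fold change was 1.49 (SE 0.47, adjusted p = 0.517). It alone had an unadjusted p below 0.05 (21.8% of genes), and it was higher by the 1.5-fold threshold, against 16.4% of genes. Mal-A6 had 346, 432 and 126 CPM in exposed males, against 36.1, 90.7 and 323 CPM in air males (log2 fold change 1.02, SE 0.53, adjusted p = 0.262). Mal-A3 had the lowest log2 fold change of the day, -0.63 (SE 0.41, adjusted p = 0.377). Amy-p had 903, 1007 and 406 CPM in exposed males, against 226, 404 and 934 CPM in air males (log2 fold change 0.59, SE 0.43). The remaining values were 0.28 for Mal-A1, 0.31 for Mal-A7 and 0.13 for Mal-A8, and -0.05 for Mal-A2 and -0.10 for Mal-A4. No member was called by edgeR (0% of genes) or by DESeq2 (6.72% of genes), and none had groups apart (6.06% of genes higher, 5.49% lower). Without the mixed library 2 of 9, Amy-d and Mal-A6, lay above air males without overlap, as did 9.98% of genes, and none lay below (9.04% of genes). The median over the 10 was 0.20, and 0.50 without the mixed library, when 8 of 10 were positive.

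On day 7, Mal-A1 had 757, 966 and 1113 CPM in exposed males, against 1609, 1341 and 1119 CPM in air males (log2 fold change -0.51, SE 0.39), and Amy-d had 195, 181 and 229 CPM in exposed males, against 393, 257 and 384 CPM in air males (log2 fold change -0.77, SE 0.45). Exposed libraries lay entirely below air libraries for these 2 of 10 genes, as for 4.48% of genes tested. For Mal-A1 the highest exposed and the lowest air library were close, at 1113 and 1119 CPM. Of the remaining maltases and Amy-p, all but Mal-A3 (0.19, SE 0.41) had negative log2 fold changes, of -0.13 for Mal-A4, -0.15 for Mal-A8, -0.33 for Mal-A7, -0.39 for Amy-p, -0.40 for Mal-A2 and -0.64 for Mal-A6. Mal-A7 had 442, 587.5 and 524 CPM in exposed males, against 819, 549 and 589.8 CPM in air males, with overlap. None of the 10 was called by edgeR or DESeq2 (0% of genes by either), and none had an unadjusted p below 0.05 (0.932% of genes did).

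No difference among the daily effects was called in males (0 of 10 by edgeR and by DESeq2, with 0% and 0.0155% of genes called). Amy-d alone had an unadjusted p below 0.05 there, against 7.65% of genes. Subtracting the male from the female exposure effect gave -3.15 for Mal-A7 (SE 1.03, adjusted p = 0.399) and -2.86 for Mal-A4 (SE 0.89, adjusted p = 0.399) on day 1, when 7 maltases had an unadjusted p below 0.05 (8.04% of genes). On day 7 the difference was 2.14 for Mal-A6 (SE 0.95) and 1.84 for Mal-A1 (SE 0.86), with an adjusted p of 1 for both and an unadjusted p below 0.05 for 4 maltases (1.33% of genes). No member was called on day 1, 2 or 7 by edgeR (0.0151%, 12.2% and 0% of genes called) or by DESeq2 (0.944%, 14.9% and 0.279%). On day 2 only Amy-d had an unadjusted p below 0.05, with a difference of -2.48 (SE 0.99, adjusted p = 0.0923), where 28.7% of genes had one. Its groups include both mixed libraries, without which that of Amy-d was -3.04 (SE 1.07, adjusted p = 0.491), the median over the 10 was -0.96 and 0.0808% of genes were called. By the 1.5-fold threshold 7 maltases were lower on day 1 (4.74% of genes), Amy-d on day 2 (13% of genes), and Mal-A1, Mal-A2, Mal-A4 and Mal-A6 were higher on day 7 (0.861% of genes). With only the 4 groups of day 1, edgeR called Mal-A1, Mal-A3, Mal-A6 and Mal-A7, with 0.395% of genes called.

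The maltases and amylases act in sequence, and the ratio of their counts did not overlap between treatments in females of days 1 and 7. Maltase counts per amylase count, as a ratio of summed CPM, were 0.919, 0.571 and 0.315 in day 1 exposed females, against 1.40, 1.50 and 1.88 in day 1 air females. On day 7 they were 3.35, 2.29 and 2.48 in exposed females, against 2.28, 1.29 and 1.12 in air females. The closest pair on day 7 was 2.29 in exposed and 2.28 in air females. On day 2 the ratio was 2.26, 2.07 and 2.10 in exposed males, against 2.64, 2.92 and 2.88 in air males, and these did not overlap either, with 2.10 from the mixed library. Summed maltases were 106 ± 49.7 CPM in day 1 exposed females and 580 ± 168 CPM in day 1 air females (SD, n = 3 each), while summed amylases were 178 ± 10.7 CPM in exposed females and 367 ± 114 CPM in air females (SD, n = 3 each). The ratio is given as a description, with no test. Amy-d made up 8.19% to 36.2% of amylase counts over the 36 libraries, the highest in the first air female library of day 2. Since the copies can share reads, that share is the authors' assignment.

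**Figure D3:**
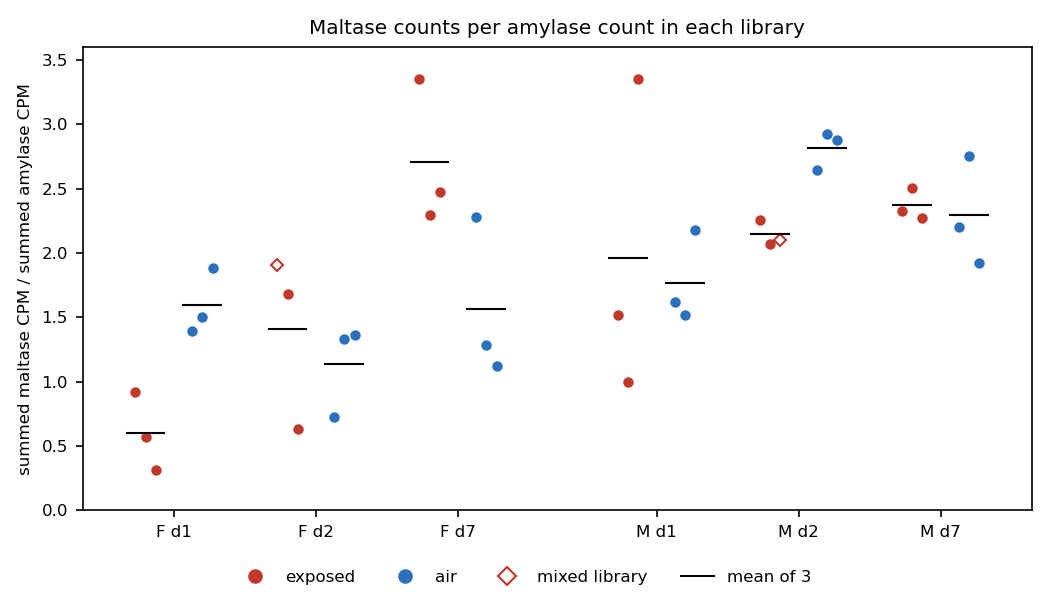
Summed maltase CPM divided by summed amylase CPM in each library, by sex and day, with exposed libraries left of air libraries and bars at the mean of 3. Day 1 exposed females lie at 0.315 to 0.919 and day 7 exposed females at 2.29 to 3.35, below and above the air females of the same day.

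Amyrel had few counts in any library. It had 0 counts in 19 of 36 libraries and at most 10 in any library but 1, a day 7 exposed female library with 28 counts (2.96 CPM). In the day 7 groups it summed to 32 counts in exposed females, 1 in air females, 14 in exposed males and 14 in air males. No count was found in day 1 females of either treatment, and no fold is given for exposure.

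One gene inside the cluster differed in direction from the rest in females on days 1 and 7. Mal-A5, an alpha-glucosidase gene (FBgn0050359; 8462753 to 8465092, plus strand) begins 1868 bp after Mal-A4 and ends 65 bp before Mal-A6 on the same strand. It had 76.8, 79.4 and 104 CPM in day 1 exposed females, against 52.6, 71.9 and 58.0 CPM in day 1 air females. Its exposed libraries were thus above its air libraries (log2 fold change 0.53, SE 0.19, adjusted p = 0.234), where both neighbours had values under -2. On day 7 it had 49.9, 46.7 and 58.5 CPM in exposed females, against 64.3, 59.0 and 70.2 CPM in air females (log2 fold change -0.28, SE 0.19, adjusted p = 0.9999). Those groups did not overlap either, and the direction in females was opposite to that of the other Mal-A genes on each of these days. In males, fitted without the mixed library, Mal-A5 had a log2 fold change of 0.58 on day 1 (SE 0.23, edgeR adjusted p = 0.591). That was the direction of the other Mal-A genes in day 1 males. The male values were -0.03 on day 2 (SE 0.26) and -0.13 on day 7 (SE 0.24).

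**Figure D4:**
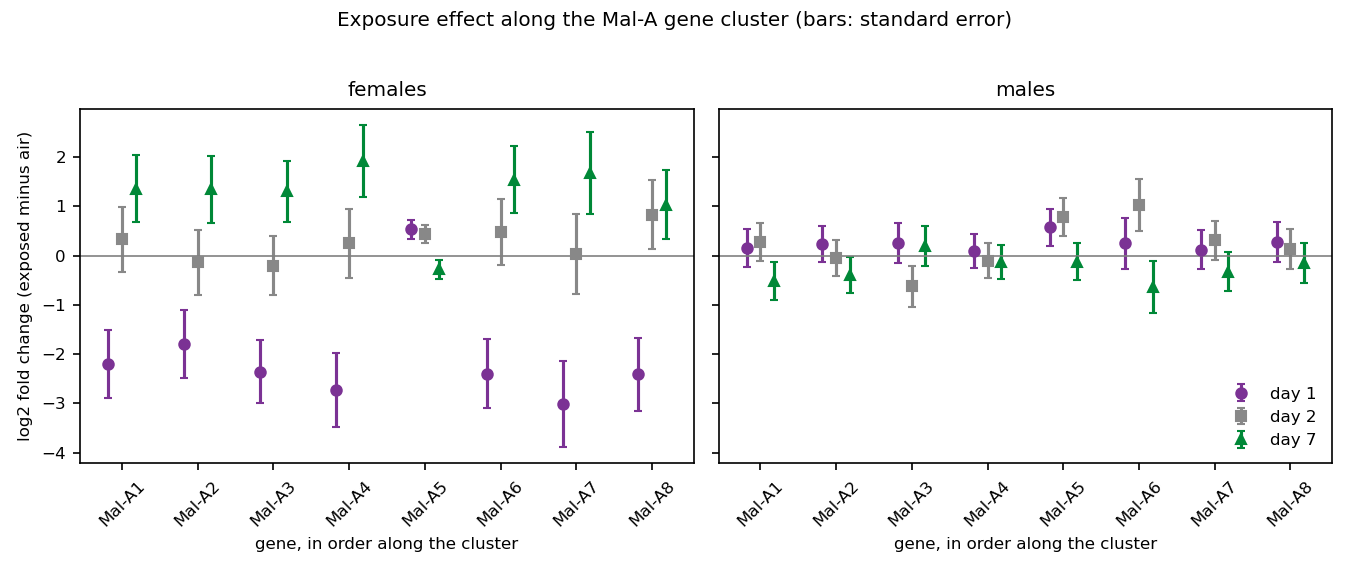
Log2 fold change of exposed minus air libraries for the 8 Mal-A genes in their order along the cluster, with standard errors, on days 1, 2 and 7. In females Mal-A5 lies at 0.53 on day 1 and -0.28 on day 7, on the other side of 0 from its 7 neighbours on both days.

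Across the 18 female libraries the mean profile of the 9 genes tested there (each gene's log2 CPM centred and scaled) correlated with Mal-A5 at r = -0.71. Across the 18 male libraries the profile of the 10 genes gave r = -0.24 with Mal-A5, and -0.03 without the mixed library. The remaining alpha-glucosidase genes outside the 10 lie elsewhere in the genome. tobi, an alpha-glucosidase gene known as a target of brain insulin, had r = 0.78 in females and 0.88 in males. It had 82.1, 51.4 and 62.1 CPM in day 1 exposed females, against 96.4, 238 and 114 CPM in air females, without overlap (log2 fold change -1.18, SE 0.64, adjusted p = 0.485). On day 7 its values were 139, 180 and 179 CPM in exposed females, against 91.0, 25.8 and 25.5 CPM in air females, again without overlap (log2 fold change 1.85, SE 0.65, adjusted p = 0.9999). Correlations within a sex are descriptions, since the libraries share groups and scaling.

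Mal-B2, a maltase gene on 2L, had 122, 157 and 222 CPM in day 1 exposed females, against 67.9, 101 and 83.5 CPM in air females (log2 fold change 1.02, SE 0.38, adjusted p = 0.255), and its r with the same profiles was 0.13 in females and 0.54 in males. Mal-B1, its neighbour, had a log2 fold change of -0.01 in day 1 females (SE 0.35) and r = 0.31 in females and 0.13 in males. In day 2 males Mal-B1 had 8.48, 107 and 37.8 CPM in exposed flies, against 5.48, 7.21 and 8.05 CPM in air flies, with the highest value in replicate 2 and the next in the mixed library. The log2 fold change was 2.92 (SE 0.62, adjusted p = 0.0782), and 3.09 (adjusted p = 0.148) without the mixed library. Set against the day 2 effect in females, the difference (females minus males) was -2.44 (SE 0.75, adjusted p = 0.0353), a call lost without the mixed libraries at -2.62 (SE 0.82, adjusted p = 0.381). Mal-B1 and Mal-B2 overlap Pde1c, and tobi overlaps rha, on the other strand, so their counts carry the same uncertainty as that of Mal-A1. None of Mal-A5, Mal-B1, Mal-B2 and tobi was called for exposure in either sex by edgeR.

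Averaged over the 3 days, all 10 genes were lower in air females than in air males, with negative log2 fold changes for 10 of 10. On day 2 alone the order was reversed for Amy-d, with a mean of 183.5 CPM in air females and 63.21 CPM in air males. Over the 3 days, edgeR called all 10 lower in females. Amyrel did not pass the filter within females, so its entry into this fit depended on male libraries and its call adds no support. In that comparison edgeR called 86.7% of genes and 50.7% as lower in females (87.1% had an unadjusted p below 0.05), and the median over all genes was -0.69, or -1.06 with the size factors of DESeq2. Relative to that median, Mal-A7 stood at -1.62, Mal-A1 at -1.56, Mal-A8 at -1.53, Mal-A4 at -1.52 and Mal-A6 at -1.40. Mal-A3 stood at -0.99, Mal-A2 at -0.96, Amy-p at -0.88 and Amy-d at -0.24. The other scaling moves every gene and the median by nearly the same amount, so values relative to the median had to stay close. Under it Mal-A7 stood at -1.60 and Amy-d at -0.21. Some other gene lists were low as well. Medians were -2.265 for muscle genes (8 of 8 called lower) and -1.69 for Malpighian tubule genes (5 of 6). The median was -1.306 for midgut epithelium genes (14 of 21) and -0.258 for other digestive enzyme genes (16 of 37), against -2.15 for the 10. The part of body makeup in this sex difference was not tested.

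For Mal-A1 the log2 fold change between air females and air males was -2.25 (SE 0.36, adjusted p = 2.14e-06), and for Mal-A7 it was -2.31 (SE 0.43, adjusted p = 1.75e-05). That of Amy-p was -1.56 (SE 0.32, adjusted p = 5.09e-05) and that of Amy-d -0.93 (SE 0.40, adjusted p = 0.0324). The call of Amy-d was lost on leaving out any 1 of 7 of the 18 air libraries, with an adjusted p of up to 0.106 (without air male replicate 3 of day 2). These were air female replicate 3 of day 1, air female replicates 2 and 3 of day 2 and of day 7, air male replicate 1 of day 1 and air male replicate 3 of day 2. Without air female replicate 1 of day 2, which had the highest Amy-d level of the air females, the log2 fold change of Amy-d was -1.67 (SE 0.33, adjusted p = 4.32e-05). Amyrel had 2 counts in air females and 32 in air males, a ratio of 0.0576 with a 95% exact counting interval of 0.00669 to 0.226. Its call was lost on leaving out the first air male library of day 1 or the second of day 7, and with only air libraries it did not pass the filter. Of the other maltases, Mal-A5 was higher in air females (log2 fold change 1.50, SE 0.18, adjusted p = 1.07e-08), as was Mal-B1 (0.65, SE 0.30, adjusted p = 0.049), while Mal-B2 (-2.21, SE 0.26) and tobi (-1.61, SE 0.33) were lower.

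The separation by sex held for 8 or 9 of 9 genes on days 1 and 7 in both treatments. On day 7 every female library lay below every male library for 9 of 9 genes, among exposed flies (45.7% of all genes lower without overlap) and among air flies (48.2%). On day 1 this held for 9 of 9 among exposed flies (46.1%) and 8 of 9 among air flies (44.9%). On day 2 it held for 1 of 9 in exposed (24.5%) and 1 of 9 in air flies (37.4%). The exposed groups of day 2 include both mixed libraries, without which it held for 9 of 9, with 2 libraries in each group (52.6% of genes).

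Ordered by mean level, the 12 groups put Mal-A1 highest in day 7 air males, at 1356 ± 246 CPM, followed by 945 ± 179 CPM in day 7 exposed males, 929 ± 396 CPM in day 2 exposed males and 777 ± 540 CPM in day 2 air males (SD, n = 3 each). Day 1 exposed males had 734 ± 37.6 CPM and day 1 air males 652 ± 114 CPM. Below the males came day 7 exposed females at 328 ± 26.1 CPM, day 2 exposed females at 290 ± 220 CPM, day 1 air females at 229 ± 51.0 CPM, day 2 air females at 211 ± 152 CPM and day 7 air females at 132 ± 111 CPM. The lowest group was day 1 exposed females at 49.3 ± 22.8 CPM. Without the mixed libraries the day 2 exposed means were 192 ± 199 CPM in females and 1157 ± 33.6 CPM in males (SD, n = 2 each). Neighbours in that order were separate without overlap at 2 of 11 steps, between the day 7 groups of males and between day 1 air males and day 7 exposed females.

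Amy-p ran from 1111 ± 279 CPM in day 7 air males to 133 ± 60.6 CPM in day 7 air females, with 1 separate step of 11, and day 1 exposed females were next to last at 150 ± 17.1 CPM. Amy-d ran from 345 ± 76.0 CPM in day 7 air males to 28.3 ± 8.04 CPM in day 1 exposed females (SD, n = 3 each). Day 7 air males were also the highest group for Mal-A2, Mal-A4, Mal-A6, Mal-A7 and Mal-A8, while Mal-A3 was highest in day 2 air males at 121 ± 91.3 CPM. Day 1 exposed females were the lowest group for all 7 maltases. Their means there were 4.72 ± 2.48 CPM for Mal-A2, 5.72 ± 2.13 CPM for Mal-A3, 11.3 ± 7.38 CPM for Mal-A4, 14.3 ± 1.49 CPM for Mal-A6, 14.2 ± 12.8 CPM for Mal-A7 and 6.68 ± 5.74 CPM for Mal-A8 (SD, n = 3 each).

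Per length of annotated exon, Amy-p and Mal-A1 led in both sexes. In air females the medians over 9 libraries were 104 CPM per kb for Amy-p and 95.4 for Mal-A1, followed by 34.0 for Amy-d, 31.6 for Mal-A7, 24.0 for Mal-A4, 19.8 for Mal-A6, 15.2 for Mal-A3, 14.3 for Mal-A8 and 6.58 for Mal-A2. In air males they were 441 CPM per kb for Amy-p and 429 for Mal-A1, then 139 for Mal-A7, 116 for Mal-A4, 95.4 for Mal-A6, 76.8 for Amy-d, 65.0 for Mal-A8, 40.5 for Mal-A3 and 21.7 for Mal-A2. The ranges of neighbouring genes overlapped, with 37.9 to 498 CPM per kb for Amy-p and 18.7 to 212 for Mal-A1 in air females. Reads from 3' end libraries depend little on length, so this order is set partly by the division itself.

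Air males had more of every gene on day 7 than on day 1. For 9 of 9 genes every day 7 air male library was above every day 1 air male library, which held for 13.3% of genes tested. Mal-A6 had 203, 150 and 218 CPM on day 1, 36.1, 90.7 and 323 CPM on day 2 and 683, 519 and 436 CPM on day 7. The test of any difference among days called none of the 10 in edgeR (0.155% of genes called), with Amy-d the nearest at an adjusted p of 0.0785 and 8 of 10 at an unadjusted p below 0.05 (8.31% of genes). DESeq2 called Mal-A6, Mal-A8 and Amy-d, with 1.67% of genes called, as did edgeR without the mixed libraries, with 2.70% of genes called. In exposed males the day 7 libraries were above those of day 1 for 5 of 9 genes, against 11.1% of genes. In air females neither tool called a difference among days (0 of 9, with 0.131% of genes called by edgeR and 3.07% by DESeq2), although 3 genes, Amy-p, Amy-d and Mal-A3, had an unadjusted p below 0.05 (14% of genes).

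The maltases varied together over the libraries of each sex, and less so with the amylases. Between pairs of maltases, Pearson's r over 18 libraries was 0.82 to 0.98 in females and 0.39 to 0.94 in males, with medians of 0.92 and 0.81 over 21 pairs. Between maltases and amylases r was 0.54 to 0.84 in females, with a median of 0.75 over 14 pairs. In males it was 0.09 to 0.90, with a median of 0.55 over 21 pairs. The male pairs include those of Amyrel, which had few counts and is absent from the female pairs, so these medians cover unlike sets. In males Mal-A3 and Amy-d had the lowest of these, 0.09. The genes with the profile most like the mean profile in females, among 7658 with a mean of at least 5 CPM, were CG6484 (r = 0.97), CG8093 (0.95), CG7968 (0.94), CG8997 (0.94), CG33127 (0.94), CG4363 (0.93), CG7916 (0.93) and CG4377 (0.93). In males, among 9465, they were the cytochrome P450 gene Cyp28d1 (r = 0.89), CG1208 (0.89), CG6028 (0.88), tobi (0.88), CG4363 (0.88), CG5107 (0.87), CG15263 (0.87) and the cytochrome P450 gene Cyp9f2 (0.86). CG4363 was in both lists. Without the mixed library, 7 of the 8 female genes remained and 4 of the 8 male genes.

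Other digestive enzyme genes shared the direction of the maltases in day 1 females. Of 39 trypsin, Jonah protease, lipase, lysozyme and mannosidase genes in the files, 36 were tested, and 35 of those had negative log2 fold changes then, with a median of -1.79. edgeR called 1 of them lower, the lysosomal mannosidase gene LManVI (log2 fold change -4.45, SE 0.89, adjusted p = 0.0459), where 0.172% of genes were called lower. The Jonah protease genes Jon25Bii and Jon25Bi, with -5.95 and -5.77 (SE 1.31 and 1.28), came next at an adjusted p of 0.06 each, and the mannosidase gene LManV had -3.62 (SE 0.85, adjusted p = 0.0803). Their summed level was 1814 to 2933 CPM in day 1 exposed females and 6046 to 10978 CPM in day 1 air females. On day 2, when the maltases had no common direction over all libraries, 33 of 36 were negative with a median of -1.54. Of these enzyme genes edgeR called 0, and 22 had an unadjusted p below 0.05, as did 9.52% of all genes tested. Without the mixed library the median was -2.50 and edgeR called 10 lower, where 0.563% of genes were called. In that same fit 7 of the 9 maltases and amylases were negative too, with a median of -0.62 and none called. On day 7, 31 of 36 were positive with a median of 0.45, and edgeR called 0. An unadjusted p below 0.05 was found for 3 of them and for 3.28% of all genes tested.

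**Figure D5:**
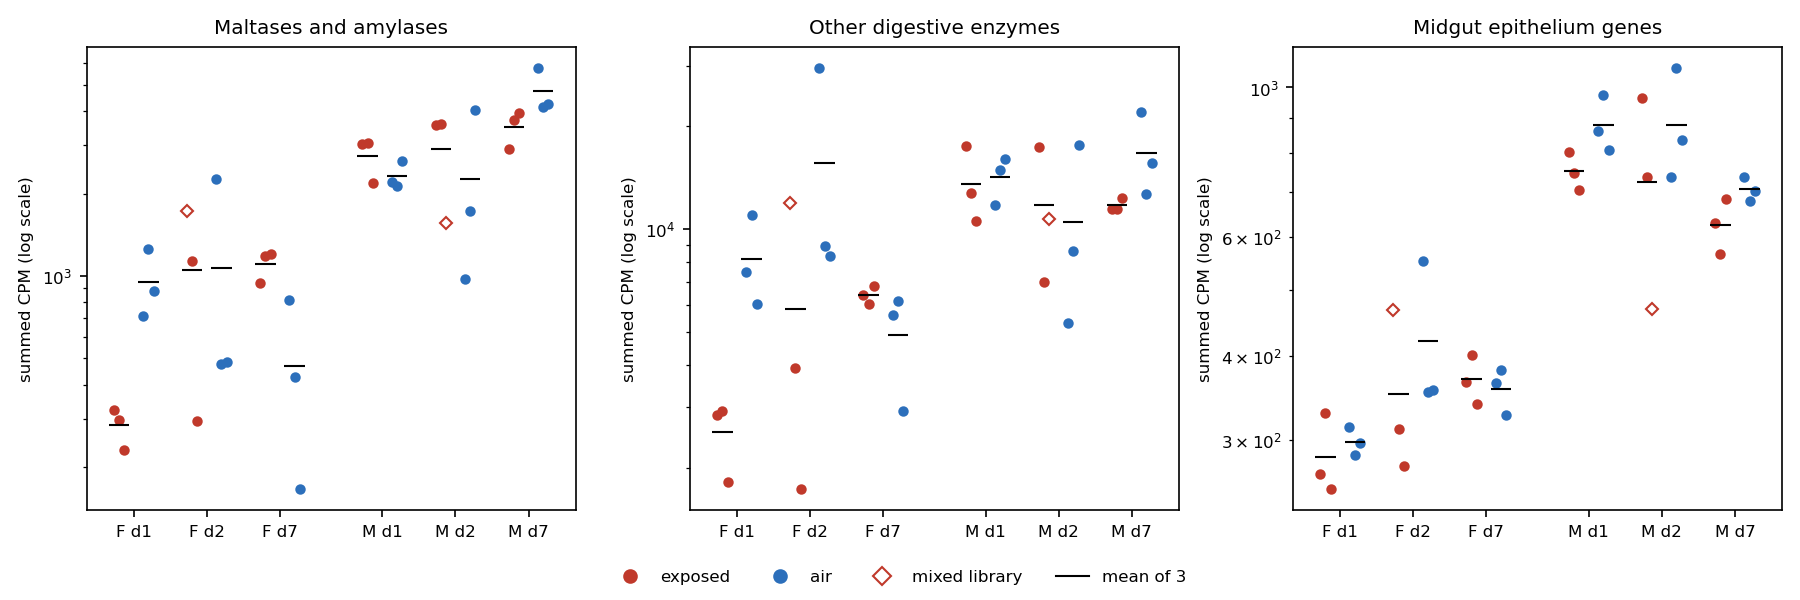
Summed CPM (log scale) in each library of the 10 maltase and amylase genes, of 39 other digestive enzyme genes and of 21 midgut epithelium genes, by sex and day, with exposed libraries left of air libraries and bars at the mean of 3. In day 1 females the first 2 sums do not overlap between treatments, at 232 to 323 against 713 to 1249 CPM and at 1814 to 2933 against 6046 to 10978 CPM, while the third overlaps.

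The summed level of 21 genes of the midgut epithelium, among them gut myosins, regional transcription factors, stem cell and hormone genes, was 253 to 329 CPM in day 1 exposed females and 285 to 313 CPM in day 1 air females. Of the 20 tested, 15 were negative with a median log2 fold change of -0.84. None was called, and 6 had an unadjusted p below 0.05, as did 12.7% of all genes tested. Log2 fold changes over the 20 ran from -4.455 to 1.439. Of those named for a small p, mex1 had -2.10 (SE 0.74, adjusted p = 0.234) and pros 0.81 (SE 0.25, adjusted p = 0.179). Whole flies were sampled, so no change of a gut cell type is read from either gene. None of the 21 was at 0 in all libraries of a female group. On day 7 their sums were 339 to 402 CPM in exposed females and 326 to 381 CPM in air females, with a median of 0.12. Fat body genes summed to 673 to 968 CPM in day 1 exposed females and 1040 to 1540 CPM in day 1 air females, without overlap. Of the 5 tested, 4 were negative with a median of -0.62 and none was called, while Fbp1 and Fbp2 were at 0 in every day 1 exposed female library and at most 0.199 CPM in day 1 air females. Malpighian tubule genes summed to 307 to 366 CPM in exposed and 327 to 401 CPM in air females on day 1, and 5 of 6 were negative with a median of -0.59 and none called. Muscle genes summed to 296 to 557 CPM in exposed and 279 to 562 CPM in air females, and of the 7 tested 3 were positive and 4 negative with a median of -0.03. The flight muscle actin gene Act88F was called lower (log2 fold change -5.32, SE 1.05, adjusted p = 0.0459), and the myosin gene Mhc had 0.98 (SE 0.21, adjusted p = 0.0523) and was called higher without the mixed library of day 2. The flight muscle gene fln was at 0 in every day 1 exposed female library but not in every day 1 air female library. Its level in air females is not given here, so no loss on exposure is read from these zeros. The part of the tissue makeup of the libraries in the maltase and amylase values was not tested.

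Genes of sugar transport, storage and sensing, to which maltase products feed, were split in direction. In day 1 females 12 of 22 were negative with a median of -0.07. None was called by edgeR, and 5 had an unadjusted p below 0.05, as did 12.7% of all genes tested. The log2 fold change was -1.08 for ImpL2, which encodes an insulin-binding protein (SE 0.24, adjusted p = 0.06), -3.89 for the trehalose transporter gene Tret1-2 (SE 1.39, adjusted p = 0.235), -0.46 for the trehalase gene Treh (SE 0.19, adjusted p = 0.312) and 0.49 for the glucose transporter gene Glut1 (SE 0.20, adjusted p = 0.298). On day 7 the median was 0.03, with sug, a sugar-responsive transcription factor gene, at -0.94 (SE 0.43) and the trehalose transporter gene Tret1-1 at 0.91 (SE 0.40), both at an adjusted p of 0.9999. daw, which encodes Dawdle, had -1.10 (SE 0.47, adjusted p = 0.494) in day 2 females.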

How the data were processed

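Whole flies were sequenced as 3' end libraries, with 36 samples in 12 groups of 3 taken from the titles and treatment labels. What the authors deposited is a raw count for each gene and library, without normalization. The submitters' processing notes name fastp, STAR, HTSeq and the dm6 build, while versions, annotation release and strand setting were not given in the sources used here. The blank entry of each file, at most 0.000107% of a library, was left out. Library totals ranged from 4681333 to 17182966, so 3 counts were 0.175 to 0.641 CPM.

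Models were fitted within a sex (18 libraries, 6 groups) by the quasi-likelihood F test of edgeR 4.0.16 under R 4.3.3, after TMM scaling and filterByExpr (minimum count 10, minimum total 15), with a prior count of 0.125. Sex differences were tested in a fit of all 36 libraries. In each of 14 comparisons, Benjamini-Hochberg adjustment ran over all genes tested, and 0.05 was the threshold. The alternatives tried were DESeq2 1.42.0, the size factors of DESeq2 in edgeR, no filter, the threshold of the series text, only the groups compared, a replicate block, leaving out the mixed libraries (over 100 CPM of roX1 and over 1000 CPM of Yp1; for day 2 overlaps and means this was added after seeing the data) and leaving out each library in turn. The fits were tested on simulated data. No pairing of samples by replicate number is stated, so the main fits used none. Replicates differed by more than sampling noise, so none was merged.

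The 10 genes, the other gene lists and the comparisons were chosen with earlier results of these data known, so no count over a list is independent support. The rule for named genes takes all 10, Mal-A5, Mal-B1, Mal-B2 and tobi, and of each other list up to 4 with the smallest p, while fln, Fbp1 and Fbp2 were named after their values were seen, as markers at 0. The genes most alike are the 8 with the highest Pearson's r with the mean scaled profile in each sex (log2 CPM, prior count 2). Positions and exon lengths come from the BDGP6.54 annotation, matched by symbol for all 14 maltase and amylase genes. No sequences are printed.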

Additional observations from a re-analysis of the deposited data

How the results depend on the processing

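The count of members called depended on the settings below. In day 1 females edgeR called 0 of 9, DESeq2 3, edgeR without the filter 4, with only the groups compared 8, and the 1.5-fold threshold 7. The 1.5-fold threshold gave 2 in day 7 females, 1 in day 2 males, and 7, 1 and 4 for the sex difference on days 1, 2 and 7. With only the groups compared the sex difference on day 1 had 4. The difference among days in females had 2 with DESeq2 and 6 without the filter, and 0 to 3 on leaving out 1 library. Air males over days had 3 with DESeq2, 1 (Amy-d) without the filter (0.173% of genes), 3 without the mixed libraries, 1 (Amy-d) with only the groups compared (2.31% of genes), and 0 to 3 on leaving out 1 library (0.287% of genes where it was 3, without air male replicate 3 of day 2). The sex difference on day 2 had 0 to 1 on leaving out 1 library, the 1 being Amy-d without the third air male library of day 2, where 11.6% of genes were called. The causes were not tested, although fewer or more genes and libraries enter by construction. The size factors of DESeq2 moved no count by over 1.5 times.

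Replicate numbers are shared across groups without a stated pairing. Deviations of like-numbered exposed and air libraries correlated above 0.1 in 4 of 18 pairs (r from -0.1 to 0.375). All 4 were of day 2, where an unlike-numbered pair, exposed female replicate 3 and air female replicate 2, had r = 0.41. These values therefore do not settle whether like numbers are pairs. With the replicate number as a block, 3 members (Mal-A3, Mal-A4 and Mal-A7) were called in day 1 females (1.25% of genes called) and the same 3 for the difference among days in females (1.43%). Under the block day 2 values turned to -0.29 for Mal-A7 in females, to 0.11 for Mal-A2 and 0.042 for Mal-A4 in males, and to -0.27 for Mal-A1 and -0.29 for Mal-A2 in the sex difference.

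Signs reversed mainly on day 2, and none of these values was called. Without the mixed libraries Mal-A1, Mal-A4 and Mal-A7 were -0.11, -0.40 and -0.71 in females, Mal-A2 and Mal-A4 were 0.14 and 0.11 in males, and the sex differences of Mal-A1, Mal-A2, Mal-A3, Mal-A4 and Mal-A8 were -0.71, -0.78, -0.46, -0.54 and -0.19. Leaving out 1 library, day 2 females ranged from -0.11 to 1.18 for Mal-A1, -0.62 to 0.89 for Mal-A2, -1.06 to 0.63 for Mal-A3, -0.40 to 1.32 for Mal-A4, -0.71 to 1.13 for Mal-A7, -0.76 to 0.92 for Amy-p and -1.86 to 0.95 for Amy-d. Day 1 males ranged from -0.017 to 0.54 for Mal-A3, -0.094 to 0.31 for Mal-A4, -0.076 to 0.29 for Mal-A7 and -0.060 to 0.92 for Amy-d. Day 2 males ranged from -0.11 to 0.96 for Mal-A1, -0.38 to 0.57 for Mal-A2, -0.94 to 0.20 for Mal-A3, -0.38 to 0.53 for Mal-A4, -0.023 to 1.11 for Mal-A7 and -0.29 to 0.68 for Mal-A8. The day 2 sex difference ranged from -0.49 to 0.97 for Mal-A1, -0.58 to 1.03 for Mal-A2, -0.43 to 1.37 for Mal-A3, -0.31 to 1.51 for Mal-A4, -1.68 to 0.45 for Mal-A6, -1.03 to 0.93 for Mal-A7 and -1.57 to 0.39 for Amy-p. On leaving out any 1 library, no member changed sign in day 1 or day 7 females, where the range was -4.03 to -0.68 and 0.35 to 2.66.

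Depth limits Amyrel, which is at or near the floor of 3 counts in most libraries.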
